A study of Homo sapiens with 12 samples.

Results

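The 41 genes described here encode the centromere, the kinetochore and the spindle checkpoint, and all 41 were found by symbol among the 59424 Ensembl genes measured. They were taken as a list of names with no cut on their values, but the list was chosen with earlier results of these data known. They fall into 3 classes: 17 constitutive centromere genes, 18 outer kinetochore genes and 6 spindle checkpoint genes. Their mRNA was measured by RNA sequencing in 12 libraries from prostate cancer cell lines in which the glycosylation enzyme GALNT7 had been lowered or raised. CWR22Rv1 cells were transduced with lentivirus for a control shRNA (shControl) or for a GALNT7 shRNA (GALNT7 KD). The recipient of extra GALNT7 was DU145, another prostate cancer line, with either a lentiviral control for the open reading frame (OE control) or lentivirus that expressed GALNT7 (GALNT7 OE). There were 3 libraries in each of the 4 groups, labelled as biological replicates of a stable line, and since nothing says that the transduction itself was repeated, p-values measure the spread between these cultures only. Knockdown was made in CWR22Rv1 and overexpression in DU145, so a difference between the comparisons cannot be told apart from a difference between the cell lines. The deposited values are reads per gene divided by a size factor of the library, called normalised counts here.

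The centromere is the stretch of each chromosome where CENP-A replaces histone H3, and HJURP and the Mis18 proteins place new CENP-A there. The constitutive centromere-associated network (CCAN) sits on CENP-A chromatin throughout the cell cycle, and CENP-C and CENP-T are its platforms for the outer kinetochore. The outer kinetochore is built for mitosis from the KNL1, MIS12 and NDC80 complexes, where NDC80 and NUF2 hold the microtubule and the SKA complex strengthens that grip. Kinetochores without microtubules recruit TTK, BUB1, BUB1B, BUB3 and MAD2L1, which keep CDC20 from activating the anaphase-promoting complex. Many of these genes are transcribed mainly in G2 and mitosis, so their mRNA in a bulk culture depends on how many cells are dividing.

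The recovered depth was 18364512 to 22264533 reads in the CWR22Rv1 libraries and 21628718 to 24356910 in the DU145 libraries. GALNT7 itself (chr4:173168753-173323967 on hg38) followed the labels: its normalised counts were 862, 1042 and 1093 in shControl and 481, 501 and 400 in GALNT7 KD, and 1051, 928 and 913 in OE control and 1988, 2221 and 2334 in GALNT7 OE. The groups did not overlap in either line, with log2 fold changes of -1.11 (SE 0.129, limma adjusted p = 0.0051) and 1.18 (SE 0.0863, limma adjusted p = 8.0e-05). The lines matched their names by markers: KLK3 was between 339 and 856 in CWR22Rv1 and listed at 0 in all 6 DU145 libraries, and VIM was between 16225 and 19758 in DU145 and at most 98.9 in CWR22Rv1. Of the leukocyte and endothelial markers, PTPRC was at 2.10 or less and CD3E and, in CWR22Rv1, CDH5 at 0. Others were not absent in DU145. CD14 was 62.5 to 124 in OE control and 25.9 to 30.1 in GALNT7 OE (limma adjusted p = 0.0031). CDH5 reached 13.1 in OE control. The 3 endothelial markers summed to 14.3 to 23.2 in OE control and 7.39 to 54.5 in GALNT7 OE. The 4 leukocyte markers summed to 2644 to 2842 in OE control and 1015 to 1150 in GALNT7 OE, nearly all of it CD68, which is not specific to leukocytes, while the 4 fibroblast markers summed to 290 to 422 and 61.9 to 157. In CWR22Rv1 the fibroblast markers summed to 263 to 347 in shControl and 668 to 772 in GALNT7 KD, most of it LUM, and the leukocyte markers to 108 to 121 and 121 to 182. Their part in the results was not tested.

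Promoter stretches are shown first for the members with a window that had the 7 largest and the 3 smallest log2 fold changes in overexpression. RefSeq windows of 250 bases before to 50 bases after the start (GRCh38.p14) were found for 33 members, which had 38 windows, and not for BUB3, CENPH, CENPL, CENPM, KNL1, KNTC1, MIS18A and TTK. Each stretch below runs from 125 bases before the start to 25 after it, 5′ to 3′ on the gene's strand, and log2 fold changes are those of GALNT7 OE over OE control. Capitals mark matches, on either strand, to TTTGAA (the cell cycle homology region, CHR, read by the MuvB complexes), to CCAAT (the box bound by NF-Y) or to the E2F site TTNNCGC with C or G at each N. The 7 with the largest changes come first.
NUF2 (log2 fold change 2.70; chr1:163321829-163321978, plus strand): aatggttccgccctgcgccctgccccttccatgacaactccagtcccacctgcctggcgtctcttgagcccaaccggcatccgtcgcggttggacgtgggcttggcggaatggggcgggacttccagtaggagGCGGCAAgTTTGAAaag
SKA3 (log2 fold change 2.61; chr13:21176528-21176677, minus strand): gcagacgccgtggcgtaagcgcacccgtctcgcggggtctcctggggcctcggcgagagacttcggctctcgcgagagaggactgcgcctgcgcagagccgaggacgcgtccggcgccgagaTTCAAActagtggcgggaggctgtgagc
BUB1 (log2 fold change 2.17; chr2:110678039-110678188, minus strand): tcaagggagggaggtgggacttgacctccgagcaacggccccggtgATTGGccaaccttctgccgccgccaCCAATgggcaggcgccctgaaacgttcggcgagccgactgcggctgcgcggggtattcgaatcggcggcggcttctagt
BUB1B (log2 fold change 2.06; chr15:40160944-40161093, plus strand): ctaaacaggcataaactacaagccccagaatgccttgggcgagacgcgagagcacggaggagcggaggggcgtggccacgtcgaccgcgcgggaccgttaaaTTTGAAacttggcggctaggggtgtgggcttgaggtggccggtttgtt
NDC80 (log2 fold change 2.05; chr18:2571432-2571581, plus strand): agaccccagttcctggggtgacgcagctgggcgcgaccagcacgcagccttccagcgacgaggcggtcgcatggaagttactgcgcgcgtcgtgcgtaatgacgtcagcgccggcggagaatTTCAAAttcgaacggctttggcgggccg
CDC20 (log2 fold change 2.02; chr1:43358856-43359005, plus strand): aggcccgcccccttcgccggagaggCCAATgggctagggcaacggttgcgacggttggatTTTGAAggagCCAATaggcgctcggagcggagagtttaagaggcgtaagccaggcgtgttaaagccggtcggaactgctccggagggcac
CENPN (log2 fold change 2.01; chr16:81007089-81007238, plus strand): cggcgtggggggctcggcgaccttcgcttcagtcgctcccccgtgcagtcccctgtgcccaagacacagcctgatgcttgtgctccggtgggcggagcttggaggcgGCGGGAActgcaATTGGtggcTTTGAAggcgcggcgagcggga
CENPT (log2 fold change -0.47; chr16:67847669-67847818, minus strand): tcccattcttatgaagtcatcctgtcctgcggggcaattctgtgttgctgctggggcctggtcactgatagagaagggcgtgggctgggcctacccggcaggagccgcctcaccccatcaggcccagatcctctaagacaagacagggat
MIS12 (log2 fold change -0.12; chr17:5486249-5486398, plus strand): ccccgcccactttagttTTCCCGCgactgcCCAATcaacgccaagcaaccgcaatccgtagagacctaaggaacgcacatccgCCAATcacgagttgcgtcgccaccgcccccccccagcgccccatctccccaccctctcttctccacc
NSL1 (log2 fold change 0.37; chr1:212791753-212791902, minus strand): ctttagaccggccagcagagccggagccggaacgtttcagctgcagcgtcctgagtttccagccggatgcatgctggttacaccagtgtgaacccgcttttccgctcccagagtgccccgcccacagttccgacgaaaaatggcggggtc
TTTGAA stood at 17 in NUF2, -3 in SKA3 and NDC80, -23 in BUB1B, -65 in CDC20 and 4 in CENPN, counted from the RefSeq start. BUB1, with the change next in size to those of NUF2 and SKA3, had no TTTGAA, and it had CCAAT boxes at -79 and -54. CDC20 carried TTTGAA between CCAAT boxes at -100 and -55. In the stretches of CENPT and NSL1 none of these letters was found, and MIS12 (the first of its windows) had CCAAT boxes at -95 and -42 and an E2F site at -108 but no TTTGAA.

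Over whole windows, TTTGAA was found in 18 of the 38 member windows (47.4%), beside 15.2% of all 35116 windows and 10.4% of the windows of genes tested in DU145. By gene, 17 of 33 members (51.5%) held it in any window, beside 13.5% of the 11585 tested genes with a window. Split at a log2 fold change of 1 in overexpression, a line drawn with the values known and not tested, 15 of the 24 members above it held TTTGAA and 2 of the 9 at or below it did, CENPC at -90 and ZW10 at -224. The 9 members above the line without it were BUB1, CENPI, CENPE, SPC24, OIP5, CENPU, CENPK, CENPW and CENPP. The other motifs did not split in that way. CCAAT was found in 16 of 24 and 6 of 9 members (66.7% of each) and in 42.3% of the tested genes, and the E2F letters in 11 of 24 and 4 of 9 members and in 2775 of the 11585 tested genes. By class, TTTGAA was in 5 of 13 centromere, 9 of 16 outer kinetochore and 3 of 4 checkpoint members with a window. Motifs of different kinds overlapped in 2 of the member windows. These matches describe letters and not binding.

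After GALNT7 knockdown in CWR22Rv1 cells, the centromere, kinetochore and checkpoint genes stayed near their control level. Of the 41 members, 1 passed the threshold, DSN1, which was higher, and none was lower. Among all 17906 genes tested (those with 5 or more normalised counts on average), 5.28% were called higher and 3.79% lower at a limma adjusted p of 0.05, fitted on log2(normalised count + 1). The median log2 fold change of the members was -0.022, beside -0.0063 over all genes, and 18 estimates were above 0 and 23 below. At an unadjusted p of 0.05, 8 members passed (3 higher, 5 lower), where 26.1% of all genes did, and the groups did not overlap for 5 members that were higher and 8 that were lower, beside 16.9% and 15.6% of all genes.

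DSN1, a subunit of the MIS12 complex that links CENP-C and CENP-T to the outer kinetochore, had 1041, 1016 and 1043 normalised counts in shControl and 1242, 1224 and 1248 in GALNT7 KD. Each knockdown library lay above each control library, and its replicates lay close together (SD 0.0183 on the log2 scale, smaller in only 0.335% of genes with a mean of at least 100). The log2 fold change was 0.26 (SE 0.0568, fold 1.20, limma adjusted p = 0.038). Leaving out any of the 6 libraries kept the change between 0.25 and 0.27 and took the limma adjusted p to between 0.066 and 0.12, and blocking on the replicate number took it to 0.081. No other subunit of its complex passed in knockdown: PMF1 was at -0.16 (limma adjusted p = 0.13), NSL1 at 0.041 and MIS12 at 0.011, with MIS12 counts of 766, 750 and 960 in shControl and 707, 934 and 854 in GALNT7 KD.

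No constitutive centromere gene passed in knockdown, and the class median was -0.029. CENPA, the centromeric histone, had 397, 415 and 362 normalised counts in shControl and 342, 364 and 364 in GALNT7 KD. These groups overlapped, and its log2 fold change was -0.13 with a 95% interval from -0.35 to 0.089. HJURP, the chaperone of CENP-A, had 1800, 1612 and 1610 in shControl and 1500, 1544 and 1447 in GALNT7 KD. The HJURP groups did not overlap, and its limma adjusted p was 0.20. All 4 genes of CENP-A and its loading had estimates below 0, from -0.26 for MIS18A to -0.091 for OIP5, and none passed. For 3 of them the groups did not overlap, where 15.6% of all genes were lower without overlap. In the CCAN, 8 estimates were above 0 and 5 below, from -0.26 for CENPL to 0.37 for CENPP, which had a limma adjusted p of 0.12. The CCAN groups did not overlap for 3 genes that were higher and 2 that were lower, beside 16.9% and 15.6% of all genes. CENPC had 575, 544 and 553 in shControl and 545, 566 and 527 in GALNT7 KD, and CENPT had 743, 559 and 792 and then 661, 599 and 654, so that both overlapped.

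Besides DSN1, no outer kinetochore gene passed in knockdown, and the class median was 0.0031. NDC80, which binds the microtubule, had 2217, 2516 and 2122 normalised counts in shControl and 2333, 2174 and 2223 in GALNT7 KD, an overlap with a log2 fold change of -0.023 (95% interval -0.20 to 0.16). Its partner NUF2 had 3102, 2512 and 2392 and then 2590, 3166 and 2911, again overlapping. KNL1, the scaffold that BUB proteins dock on, had the highest estimate of all members (0.43) and a limma adjusted p of 0.53: its counts were 1384, 2896 and 1319 in shControl and 1655, 3585 and 2173 in GALNT7 KD. The second library of each group was far above the other two, and CENPF, a corona protein, had its highest value in the same 2 libraries (8001 and 8649, the others 4742 to 5794). CENPE, a kinetochore motor, had the lowest estimate (-0.40), and its 917 in the third GALNT7 KD library stood against 1711 to 2412 in the other five. ZW10 and KNTC1, subunits of the complex that brings dynein to kinetochores, overlapped between groups, with log2 fold changes of 0.14 and -0.029. KNTC1 is the only member on chromosome 12, whose genes had a median log2 fold change of -0.28 in knockdown, and centred on that median it was at 0.24 (limma adjusted p = 0.29). SPC25 was low and scattered in CWR22Rv1, with 44.8, 69.0 and 1.83 counts in shControl and 7.73, 24.5 and 38.5 in GALNT7 KD, and the 95% interval of its log2 fold change ran from -2.96 to 2.93.

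The 6 checkpoint genes did not pass in knockdown either, with a class median of -0.078. BUB3, the partner of both BUB1 and BUB1B, had 3907, 3934 and 3775 normalised counts in shControl and 3506, 3559 and 3422 in GALNT7 KD. Those groups did not overlap, and the log2 fold change of -0.15 (SE 0.0439) had a limma adjusted p of 0.086, while DESeq2 gave 0.011. BUB1, a kinase that marks centromeric chromatin, had 2526, 2367 and 2489 and then 2666, 2881 and 2502, and BUB1B (BubR1) had 4385, 4635 and 4317 and then 4359, 4069 and 4079. MAD2L1, the MAD2 protein that captures CDC20, stood at -0.026 and CDC20 at -0.063, both with overlapping groups. TTK, the kinase at the head of the checkpoint, had 1801, 2050 and 2022 in shControl and 1596, 2067 and 1131 in GALNT7 KD, where the third library was low and the second was above all controls. In all, 34 of the 41 intervals in knockdown lay within 0.5 of 0 on the log2 scale, a fold of 1.41, and those of CENPP, MIS18A, SPC25, KNL1, CENPE, CENPF and TTK reached beyond it.

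**Figure D1:**
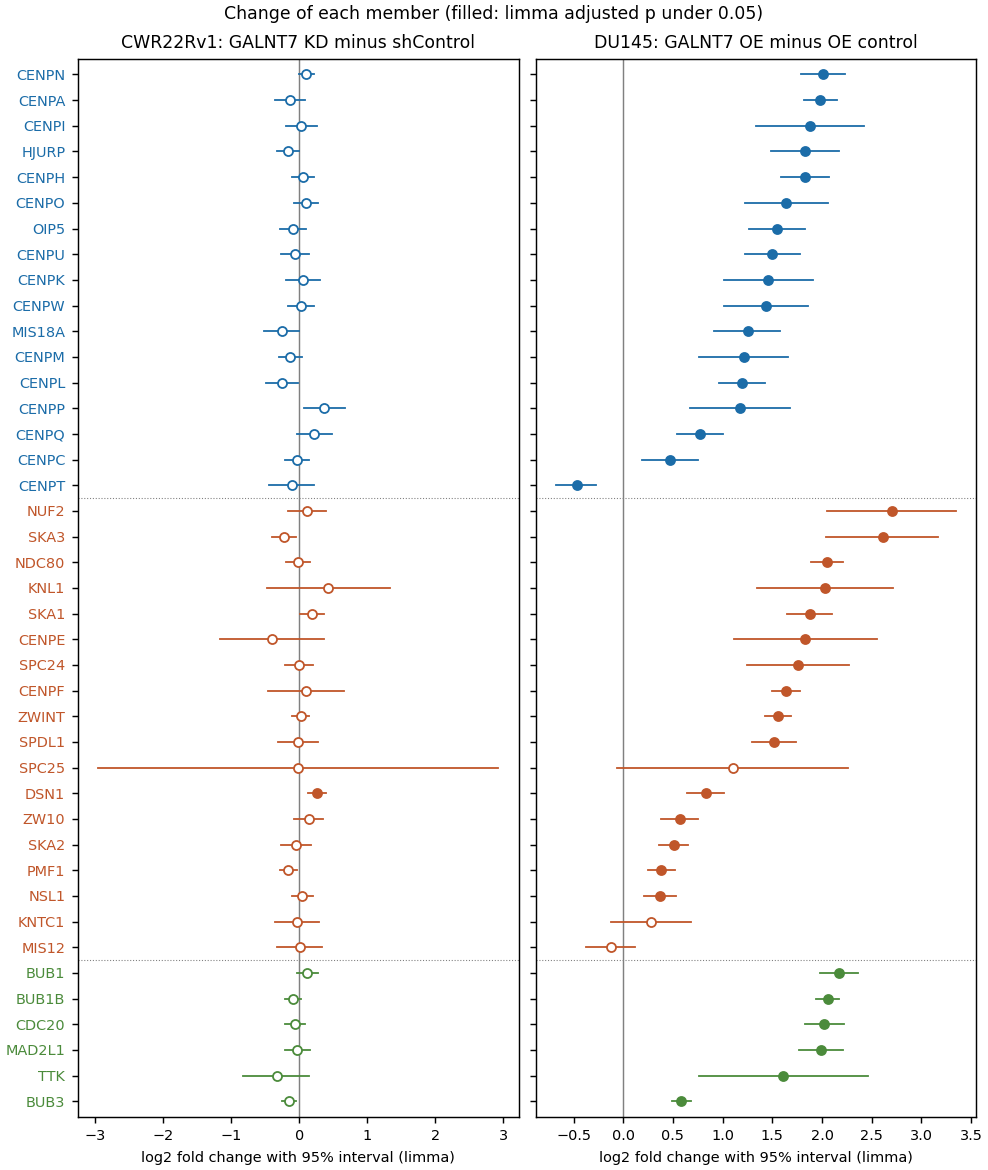
Log2 fold change of each of the 41 members with its 95% interval (limma), GALNT7 KD minus shControl in CWR22Rv1 on the left and GALNT7 OE minus OE control in DU145 on the right; the horizontal scales differ. Blue, orange and green are constitutive centromere, outer kinetochore and checkpoint genes, and filled points passed an adjusted p of 0.05: DSN1 on the left, and all but SPC25, KNTC1 and MIS12 on the right, where CENPT is the only called gene below 0.

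After GALNT7 overexpression in DU145 cells, the machinery rose almost as a whole: 37 of 41 members were higher, CENPT was lower, and SPC25, KNTC1 and MIS12 did not pass. Among the 18705 genes tested, 22.9% were called higher and 20.5% lower. The median log2 fold change of the members was 1.55, a fold of 2.93, beside -0.011 over all genes, of which 5% lay above 1.03. In 38 members every GALNT7 OE library was above every OE control library and in CENPT every one was below, where 28.2% and 27.1% of all genes had groups that did not overlap. Added together, the members had 24514 to 24738 normalised counts in OE control libraries and 57961 to 59919 in GALNT7 OE libraries. A larger share of dividing cells and more of these mRNAs per cell cannot be told apart in bulk RNA.

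**Figure D2:**
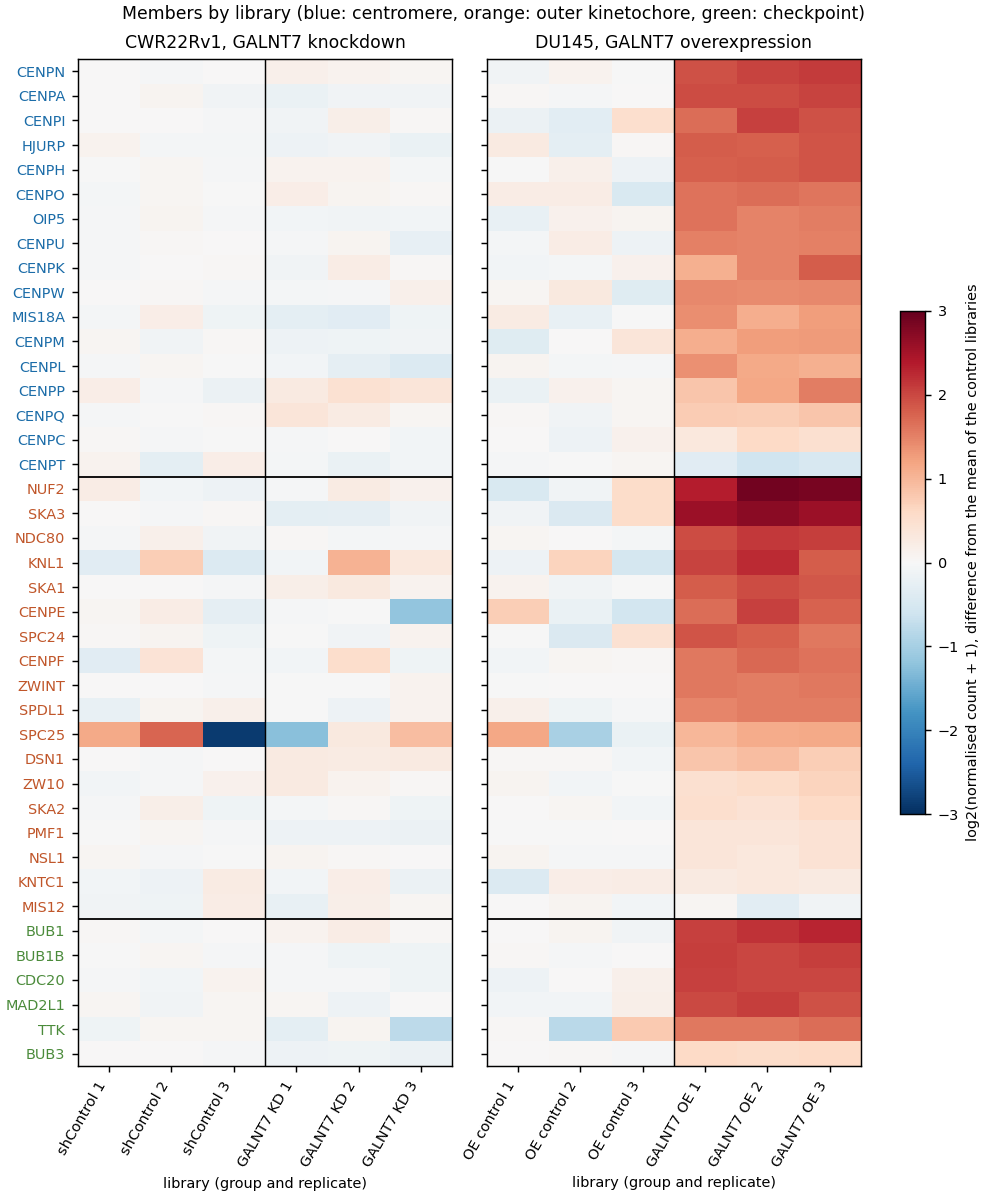
Log2(normalised count + 1) of the 41 members in each of the 12 libraries, as the difference from the mean of the 3 control libraries of the same line (colour, from -3 to 3). The 3 GALNT7 OE libraries are red for nearly every gene and pale blue for CENPT, MIS12 is near white, and the CWR22Rv1 panel stays pale except for single libraries of SPC25, KNL1, CENPE, CENPF and TTK.

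All 4 genes of CENP-A and its loading rose. CENPA had 257, 245 and 254 normalised counts in OE control and 988, 982 and 1030 in GALNT7 OE. The groups were far apart for their spread, and the log2 fold change was 1.98 (SE 0.0704, fold 3.96, limma adjusted p = 4.8e-06). HJURP went from 436, 291 and 366 to 1262, 1252 and 1338, a log2 fold change of 1.83 (SE 0.144, limma adjusted p = 1.1e-04). OIP5 (Mis18β) and MIS18A, which mark the centromere for HJURP, rose by 1.55 and 1.25. HJURP and CENPA, the chaperone and its cargo, thus kept close to the same ratio per kilobase of transcript, 0.657 ± 0.116 (SD, n = 3) in OE control and 0.585 ± 0.00623 in GALNT7 OE.

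Of the 13 CCAN genes 12 rose and CENPT fell, with a median of 1.44. CENPN, which reads the CENP-A nucleosome, rose most in the class: its counts were 243, 283 and 261 in OE control and 983, 1076 and 1117 in GALNT7 OE, a log2 fold change of 2.01 (SE 0.0915, limma adjusted p = 1.1e-05). CENPL, its partner, rose by 1.19. CENPH, CENPI, CENPK and CENPM, which form a complex of the network, rose by 1.83, 1.88, 1.46 and 1.21, and CENPO, CENPP, CENPQ and CENPU, which form another, by 1.64, 1.17, 0.77 and 1.50. The platforms CENPC and CENPT had the lowest estimates of the network, but CENPC rose and CENPT fell. The interval of the log2 fold change of CENPC (0.19 to 0.75) overlapped that of CENPQ (0.54 to 1.00), which is not a platform. Whether platforms differ from the other genes of the network was not tested. CENPC went from 269, 242 and 294 to 335, 408 and 373, with no overlap and a log2 fold change of 0.47 (SE 0.118, limma adjusted p = 0.017), the smallest rise of the class; without OE control 2 or without GALNT7 OE 2 its change was 0.40 and its limma adjusted p was 0.054 and 0.056.

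CENPT had 904, 933 and 965 normalised counts in OE control and 743, 613 and 669 in GALNT7 OE. Every GALNT7 OE library was below every control, and the log2 fold change was -0.47 (SE 0.0867, fold 0.721, limma adjusted p = 0.0046). CENPW, the histone-fold protein that pairs with CENP-T, went the other way, from 82.1, 97.2 and 61.5 to 217, 213 and 215, a log2 fold change of 1.44 (SE 0.180, limma adjusted p = 8.3e-04). Per kilobase of transcript the CENPW to CENPT ratio was 0.284, 0.326 and 0.199 in OE control and 0.916, 1.08 and 1.00 in GALNT7 OE. The exons of CENPT overlap those of THAP11 and TSNAXIP1 on the other strand, and the strand setting of the quantification is not given in the sources used here, so reads of these genes may be mixed, as may those of CENPO with ADCY3 and of CENPP with IPPK.

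NUF2 and SKA3, both of the outer kinetochore, had the largest rises of all members, while the checkpoint genes BUB1 (2.17) and BUB1B (2.06) came before NDC80. NUF2 went from 133, 170 and 270 normalised counts in OE control to 936, 1368 and 1326 in GALNT7 OE, a log2 fold change of 2.70 (SE 0.273, fold 6.50, limma adjusted p = 3.1e-04). SKA3, of the SKA complex, went from 104, 81.8 and 163 to 661, 729 and 666, a log2 fold change of 2.61 (SE 0.238, fold 6.09, limma adjusted p = 2.0e-04). In both genes even the lowest GALNT7 OE library, 936 and 661, stood far above the highest control, 270 and 163. NDC80 went from 569, 557 and 524 to 2148, 2388 and 2322, and its log2 fold change of 2.05 had a smaller error (SE 0.0684, limma adjusted p = 3.8e-06). KNL1 went from 399, 705 and 309 to 1808, 2101 and 1568, a log2 fold change of 2.03 (SE 0.288, limma adjusted p = 0.0015). Its partner ZWINT rose by 1.56 with closely matched replicates (604, 619 and 612, then 1826, 1771 and 1820). SPC24 rose by 1.76 and SKA1 by 1.88, while SKA2, the remaining SKA subunit, rose by 0.51 from the highest level per kilobase of the 3 (718 in OE control, beside 55.0 for SKA1 and 39.9 for SKA3).

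SPC25, which pairs with SPC24, did not pass: it had 156, 34.8 and 60.5 in OE control and 140, 152 and 154 in GALNT7 OE. The first control library was as high as the overexpressing ones and the other two were lower, with an estimate of 1.10 (SE 0.489, limma adjusted p = 0.11). Without OE control 1 it was 1.68 (limma adjusted p = 0.0047). Of the corona and motor genes, CENPE, CENPF and SPDL1, which take part in capturing microtubules and recruiting dynein, rose by 1.83, 1.64 and 1.52. ZW10 rose less, from 700, 630 and 658 to 925, 978 and 1048, a log2 fold change of 0.57 (SE 0.0775, limma adjusted p = 0.0012). KNTC1, which works in the same complex, had 1145, 1774 and 1776 in OE control and 1834, 1899 and 1847 in GALNT7 OE. Its groups did not overlap but the first control stood apart, the log2 fold change was 0.28 (SE 0.168, limma adjusted p = 0.22), and without that library it was 0.067.

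The MIS12 complex was the least changed of the outer kinetochore, with a median of 0.38 beside 1.54 for the class. MIS12 had 1136, 1202 and 1064 normalised counts in OE control and 1172, 914 and 1051 in GALNT7 OE. These groups overlapped, and the log2 fold change of -0.12 had a 95% interval from -0.37 to 0.12 (limma adjusted p = 0.37), so a rise of the median size of its class lay outside that interval. NSL1 went from 788, 729 and 735 to 961, 940 and 1010 (log2 fold change 0.37, SE 0.0671, limma adjusted p = 0.0043). PMF1 rose by 0.38 (SE 0.0568, limma adjusted p = 0.0018), and some of its reads could belong to the readthrough gene PMF1-BGLAP, which shares exons with it. DSN1 went from 724, 727 and 665 to 1248, 1344 and 1170, a log2 fold change of 0.83 (SE 0.0774, limma adjusted p = 2.3e-04). DSN1 was thus the member of its complex with the largest estimate in both lines. It was the only member of the 41 that passed in both, as no other member passed in knockdown. Its call in knockdown was lost with any library left out.

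**Figure D3:**
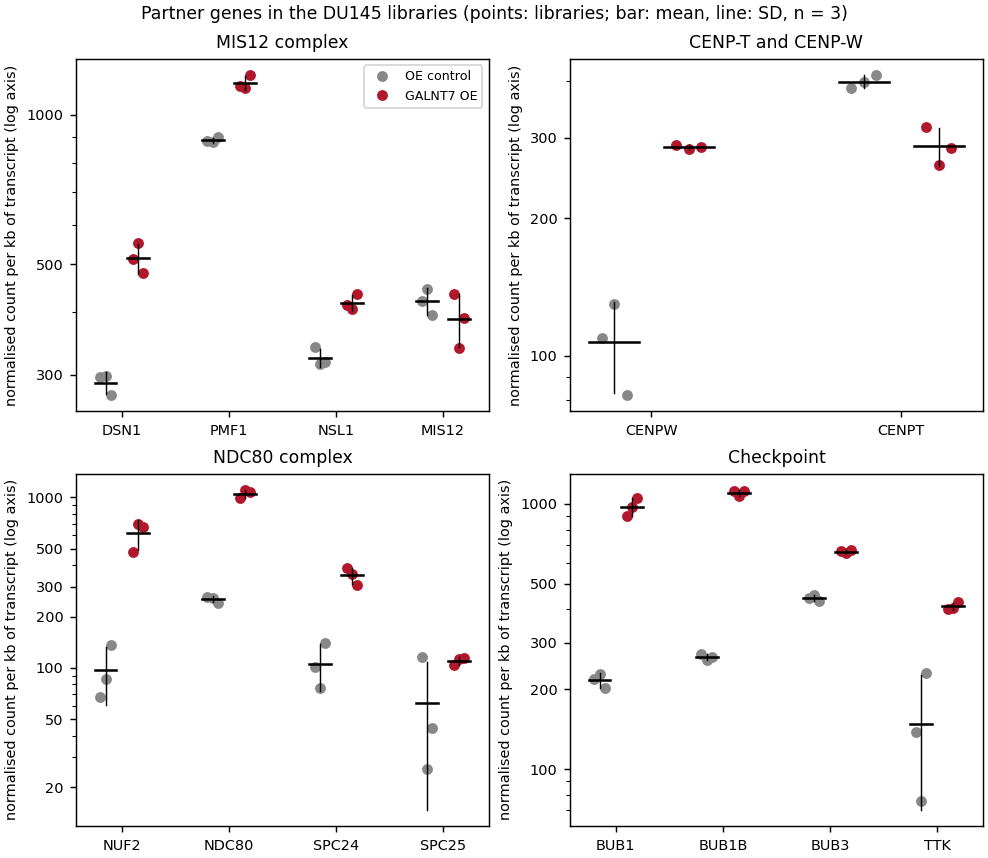
Normalised counts per kilobase of principal transcript (log axis; the axes differ) in the 3 OE control (grey) and 3 GALNT7 OE (red) libraries of DU145 for genes whose proteins work together; bars are means and vertical lines SDs (n = 3). Grey and red points separate for every gene but MIS12 and SPC25, and CENPT is the gene whose red points lie below the grey.

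All 6 checkpoint genes rose, and 4 of them by a log2 fold change close to 2. BUB1 went from 768, 801 and 707 normalised counts in OE control to 3162, 3417 and 3703 in GALNT7 OE (log2 fold change 2.17, SE 0.0795, limma adjusted p = 5.2e-06). BUB1B went from 1010, 960 and 988 to 4165, 3981 and 4173 (2.06, SE 0.0498, limma adjusted p = 1.6e-06). CDC20, the target of the checkpoint and activator of anaphase, went from 894, 1005 and 1105 to 4131, 4032 and 4028 (2.02, SE 0.0809, limma adjusted p = 7.1e-06). MAD2L1 went from 370, 371 and 443 to 1560, 1646 and 1488 (1.99, SE 0.0931, limma adjusted p = 1.2e-05). In these 4 genes the replicates of each group lay close together beside the gap between groups. TTK, whose controls scattered (414, 229 and 695, then 1211, 1216 and 1285), rose by 1.61 (SE 0.358, limma adjusted p = 0.010). BUB3, which also has roles outside mitosis, rose least, from 3460, 3542 and 3367 to 5203, 5097 and 5236 (0.58, SE 0.0403, limma adjusted p = 6.2e-05). Per kilobase of transcript the BUB1B to BUB3 ratio was 0.600 ± 0.0262 in OE control and 1.67 ± 0.0219 in GALNT7 OE (SD, n = 3). The exons of BUB1B overlap the readthrough gene BUB1B-PAK6, and those of CENPA overlap SLC35F6, so some of their reads could belong to these neighbours.

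Set side by side, the 3 classes rose by medians of 1.46 (constitutive centromere), 1.54 (outer kinetochore) and 2.01 (spindle checkpoint). Library by library, the class median, as the difference from the control mean, lay between 1.45 and 1.52 in the 3 GALNT7 OE libraries for the centromere genes, between 1.52 and 1.56 for the outer kinetochore genes and between 1.96 and 2.02 for the checkpoint genes. The checkpoint median was the highest in each library, while the order of the centromere and outer kinetochore medians turned after quantile normalisation (1.56 and 1.48). The checkpoint class has only 6 genes, and the spread within each class was wider than the gap between them, from -0.47 to 2.01, from -0.12 to 2.70 and from 0.58 to 2.17. In GALNT7 KD the same medians lay between -0.075 and 0.024, between -0.032 and 0.073 and between -0.12 and -0.029. In all, 30 members rose by a log2 fold change over 1 in overexpression and 8 by over 2, and no member moved by more than 1 in knockdown. The signs of the estimates in the 2 comparisons were opposite for 23 members (22 below 0 in knockdown and above 0 in overexpression) and the same for 18. Since 39 of the 41 estimates were above 0 in overexpression, this split mostly repeats the signs in knockdown. There 23 estimates were below 0 and none of them was called. The share of opposite signs over all genes was not counted.

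The other genes of chromosome segregation gave a measure of how far the rise reached in DU145, where 22.9% of all genes were called higher and 20.5% lower. Of 21 further centromere and kinetochore genes, 11 rose and 1 fell, with a median of 0.39; SGO1, the protector of centromeric cohesion, rose most (2.31, limma adjusted p = 2.1e-05), CENPB, which binds centromeric satellite DNA, fell by 0.21 (limma adjusted p = 0.034), and CENPS was the lowest estimate (-0.24, limma adjusted p = 0.43). All 9 chromosomal passenger and mitotic kinase genes rose, from 1.36 for INCENP to 2.18 for PLK1 and CDK1. Of 18 genes of the anaphase-promoting complex and its partners, 11 rose and 2 fell, from -0.81 for ANAPC2 (limma adjusted p = 9.8e-04) to 1.82 for UBE2C, the other gene that fell being ANAPC13 (-0.46). Of 15 cohesin and separase genes 11 rose and 1 fell, from -0.44 for MAU2, a cohesin loader, to 2.19 for ESCO2, which acetylates cohesin in S phase.

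Reference genes of the cell cycle moved with the members in overexpression, where 22.9% of all genes were called higher and 20.5% lower. All 14 S phase genes rose, with a median of 1.09, from 0.53 for SLBP to 1.74 for CDC6, and all 14 genes of G2 and mitosis rose, with a median of 1.76, from 1.20 for NUSAP1 to 2.16 for CDC25C. Of 17 transcription factors and regulators of cell cycle genes 12 rose and 2 fell, from -0.55 for RBL2, a repressor in quiescent cells, to 2.03 for MYBL2, a MuvB partner, and NFYB fell by 0.26. The part of the cell cycle in the rise of the kinetochore genes was not tested. In knockdown none of the 21 further kinetochore genes (from -0.44 for CLASP1 to 0.31 for SUGT1) and none of the 9 passenger and kinase genes (from -0.25 for BIRC5 to 0.019 for HASPIN) passed. Of the 18 genes of the anaphase-promoting complex 2 fell, and 1 each of the cohesin and separase, S phase and G2 and mitosis lists, beside 3.79% of all genes. ANAPC7 fell by 0.53 and ANAPC15 by 0.38, ESPL1, the separase, by 0.57, TYMS by 0.36 and PRC1, the midzone organiser, by 0.50, with limma adjusted p between 0.0033 and 0.039. Of the 17 regulators 3 fell and 1 rose: FOXM1, NFYB and E2F4 fell by 0.40, 0.32 and 0.38, and CDKN1A rose by 0.53, as it did by 0.55 in overexpression. ANAPC7, ESPL1, FOXM1 and NFYB lie on chromosome 12, with its median of -0.28, and centred on that median they were at -0.26, -0.30, -0.13 and -0.046 (limma adjusted p = 0.045, 0.12, 0.18 and 0.69). E2F4, on chromosome 16, was at -0.33 after centring (limma adjusted p = 0.061).

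**Figure D4:**
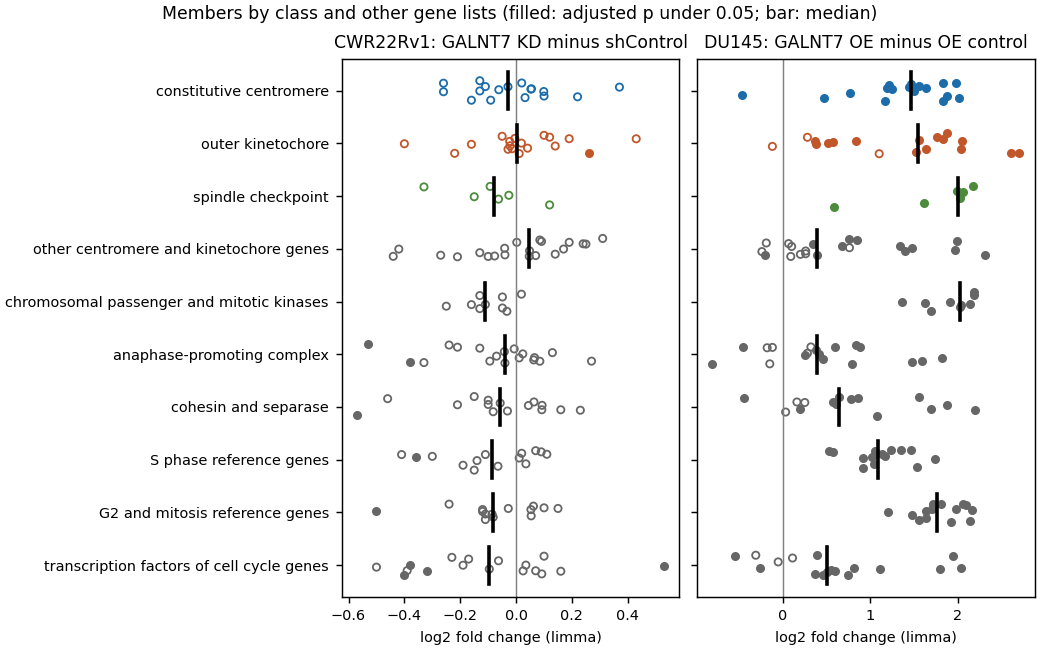
Log2 fold change of each gene, by class of the members (coloured) and by other gene lists (grey), for GALNT7 KD minus shControl in CWR22Rv1 (left) and GALNT7 OE minus OE control in DU145 (right; the horizontal scales differ). Filled points passed a limma adjusted p of 0.05 and bars are medians, which run on the right from 0.39 to 2.02 and on the left from -0.11 to 0.047.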

How the data were processed

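RNA was extracted with RNeasy and sequenced from TruSeq Stranded mRNA libraries of 12 cultures. The authors deposited a signal per gene in 1 table for each cell line, which is a read count scaled by the library's own size factor. The submitters' processing notes name FastQC, Salmon, DESeq2, R 3.5.3 and hg38, and the annotation release and strand setting are not given in the sources used here. Every value was a whole multiple of the smallest one in its library (tolerance 0.01; 100% of values), which gave the recovered reads; since Salmon is named, these may be rounded estimates of reads and not counted reads. Symbols, positions and transcript lengths came from GENCODE release 29 on GRCh38, which holds 94.4% of the 59424 identifiers, and promoters from RefSeq. Levels per kilobase use the principal transcript.

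Each line was fitted alone with limma 3.58.1 in R 4.3.3 (lmFit, eBayes with trend) on log2(normalised count + 1), which understates the change of low genes, for genes with a mean of at least 5, with Benjamini-Hochberg adjustment over all genes and a threshold of 0.05. Because each table has its own scaling, levels are set side by side within a line and not between lines. Alternatives were pseudocounts of 0.5 and 5, other filters, rescaling, quantile normalisation, no trend, each replicate left out, the replicate block, a threshold of 0.01, chromosome centring, and edgeR 4.0.16 and DESeq2 1.42.0 on recovered reads. In a simulation of each design with 200 changed genes, limma found 199 for knockdown (8 wrong calls, 17921 genes) and 200 for overexpression (12 wrong calls, 18707 genes). The changed genes were well measured, moved by a log2 fold change of 1 or more, and all genes had the same dispersion. The members moved by -0.40 to 0.43 in knockdown, so the simulation does not measure how often changes of that size are found.

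Genes named in full were GALNT7, every member past the threshold in knockdown, 16 fixed members, and in overexpression the 2 largest and 2 smallest changes of each class and every member that did not pass; of other lists, the extremes and exceptions. Partner ratios and some further members were chosen after their values were seen. The members and lists were chosen with earlier results of these data known. Of 136 other list genes 135 were matched by symbol, NDE1 not being used here. The values of 1 marker gene are not reported here. The mean chi-square per gene between replicates was 8.85 to 23.5, far from a repeated library.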

Additional observations from a re-analysis of the deposited data

How the results depend on the processing

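In overexpression 36 to 39 members passed under every alternative run, CENPT being the gene that was lower in each; the lowest count was at a threshold of 0.01, where CENPC and TTK were lost, and each replicate left out gave 37 to 39. In knockdown the count of 1 (DSN1) became 0 with no filter, without the trend, at a threshold of 0.01, with the replicate block and with each replicate left out (0 to 0), and 2 with DESeq2, which added BUB3. At an unadjusted p of 0.05 limma passed 8 members with no filter, with the replicate block and at the stricter threshold, 3 without the trend and 3 to 10 with a replicate left out, edgeR 9 (1 adjusted) and DESeq2 10. Over all genes tested, same-numbered libraries hardly varied together (r of their deviations from -0.011 to 0.075 in CWR22Rv1 and 0.016 to 0.043 in DU145). That r cannot show whether single genes share a pattern by number. KNL1 in knockdown had a limma adjusted p of 0.087 with the replicate block and 0.53 without it. With the replicate block 38 members passed in overexpression. The class medians in overexpression (1.46, 1.54 and 2.01 for centromere, outer kinetochore and checkpoint) were 1.36, 1.44 and 1.91 after rescaling to the 75th percentile, which shifted all genes by -0.097, and 1.56, 1.48 and 1.93 after quantile normalisation, where the order of the first 2 classes turned. Centred on chromosome medians the outer kinetochore median was 1.47, and edgeR and DESeq2 both gave 1.49 for the centromere genes. With a replicate left out the medians ranged from 1.42 to 1.58, from 1.50 to 1.60 and from 1.94 to 2.07, and in knockdown from -0.056 to -0.0035, from -0.010 to 0.041 and from -0.10 to -0.060. The causes were not tested. SPC25 in CWR22Rv1 had the largest SE of the members (1.24), and the median SE of a member was 0.0859 in knockdown and 0.101 in overexpression.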

Other observations

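The spread between replicates differed among the members. On the log2 scale the median replicate SD of the 7 members whose principal transcript is longer than 6000 bases (CENPF, KNL1, CENPP, CENPE, BUB3, KNTC1 and CENPC) was 0.202 in CWR22Rv1 and 0.259 in DU145, beside 0.0892 and 0.116 for the other members. The relation was uneven: BUB3, at 7828 bases, was among the tightest in both lines (SD 0.0302 and 0.0295), and over the 41 members Spearman's rho of length and SD was 0.184 and 0.0930. Above the 90th percentile of genes with a mean of at least 100 lay 4 members in CWR22Rv1 (SPC25, KNL1, CENPE and CENPF) and 8 in DU145 (SPC25, TTK, CENPE, KNL1, NUF2, SKA3, CENPI and SPC24). In CWR22Rv1, KNL1, CENPF and MKI67 had their highest value of each group in the second library. MKI67 had 4877, 7864 and 4260 normalised counts in shControl and 4535, 8433 and 4782 in GALNT7 KD. Other genes that peaked there in both groups were CENPE, TTK, ASPM, TOP2A and EGFR, the last of which is on none of the cell cycle lists. EGFR had 20152, 25765 and 20289 in shControl and 22990, 28306 and 22567 in GALNT7 KD. Per kilobase of transcript the CENPN to CENPL ratio did not overlap between groups in either line, at 2.94, 2.66 and 2.87 in shControl and 3.29, 3.65 and 3.92 in GALNT7 KD, and 0.532, 0.676 and 0.612 in OE control and 0.881, 1.13 and 1.22 in GALNT7 OE, a pair chosen after its values were seen and not tested.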
